A study of Rattus norvegicus with 6 samples.

Results

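The sodium-potassium pump is represented here by its beta chains Atp1b1, Atp1b2 and Atp1b3, 3 of the 14506 genes that the array annotation named from a row with a single symbol. They were selected on their measured differences between the coatings compared below, so these differences are given as a description, with no test. Each has 1 row in the deposited table.

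The samples were cells released from long bones of 2 to 5 day old rats of the Sprague Dawley strain. These were allowed to settle on plates coated with mouse prothrombin (PT), the precursor of the clotting protease thrombin, or with bovine milk osteopontin (OPN), a phosphoprotein of bone matrix. Affymetrix Rat Gene 1.0 ST arrays read the RNA of the attached cells. For PT there were 3 arrays, numbered 1, 2 and 4, and for OPN also 3, numbered 2, 3 and 4. No genotype or drug separates the groups, the attached cells are a mixture, and the labels do not say whether animals were pooled or whether replicates came from separate preparations. Spread between these arrays, on which every p-value rests, may thus be technical.

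The pump moves sodium out of the cell and potassium in, at the cost of ATP, and so keeps the ion gradients on which other carriers and channels draw. Its alpha chain carries out the transport. The beta chain, a glycoprotein that crosses the membrane once, is needed to bring the alpha chain to the cell surface and also takes part in adhesion between cells, and small FXYD proteins tune the pump's kinetics. Atp1b1 encodes the widespread beta 1 chain, Atp1b2 the beta 2 chain that was also described as an adhesion molecule on glia, and Atp1b3 the beta 3 chain, known on leukocytes as CD298.

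The RefSeq promoter table (GRCr8, 250 bases before to 50 after each gene's start) had no entry for Atp1b1. Whether promoter motifs bear on the differences between coatings was not tested. The windows of Atp1b2 and Atp1b3, 2 of the 3 members, were held and are shown. Both lie on the minus strand of their chromosomes, at chr10:54823659-54823958 for Atp1b2 and chr8:105821102-105821401 for Atp1b3. Capitals mark 3 motifs on either strand: the TATA box (TATAAA), the GC box (GGGCGG) and the CCAAT box (CCAAT).
Atp1b2: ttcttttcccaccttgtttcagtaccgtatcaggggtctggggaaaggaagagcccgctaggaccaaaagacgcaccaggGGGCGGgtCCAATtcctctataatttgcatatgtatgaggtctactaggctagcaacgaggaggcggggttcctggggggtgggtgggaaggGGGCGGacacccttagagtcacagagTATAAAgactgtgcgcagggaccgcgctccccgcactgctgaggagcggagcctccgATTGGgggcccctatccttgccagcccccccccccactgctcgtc
Atp1b3: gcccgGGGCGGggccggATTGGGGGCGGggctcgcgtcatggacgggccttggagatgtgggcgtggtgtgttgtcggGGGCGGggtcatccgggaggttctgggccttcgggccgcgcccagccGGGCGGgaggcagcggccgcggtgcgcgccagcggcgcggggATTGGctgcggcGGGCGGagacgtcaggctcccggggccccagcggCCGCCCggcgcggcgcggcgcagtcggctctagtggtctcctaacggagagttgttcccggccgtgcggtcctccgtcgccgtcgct
The Atp1b2 window is 60.3% G and C and holds 1 TATAAA, which begins 52 bases before the start, with 2 GC boxes and 2 CCAAT matches. The Atp1b3 window is richer in G and C, at 77.7%, and holds 6 GC boxes and 2 CCAAT matches but not the letters TATAAA. No match overlaps another. Of 33469 promoter windows of this length, 14.2% hold the TATA box, 33.1% the GC box and 37.5% the CCAAT box, and the median window is 51.7% G and C.

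Values are linear PLIER signals, the summary of a probe set's probe intensities that the authors deposited. Array medians lay between 207.8 and 231.4 units, and correlations of log2 values across rows were at least 0.988 within a coating and at most 0.979 between coatings. Calls of signal over background were not used, so how far a dim row lies above background is not known. Differences are OPN minus PT on the scale log2(signal + 16), with standard errors from limma. A gene outside the 3 members is said to rise or fall where limma's adjusted p is below 0.05. Over all 29215 rows 5.82% were called, with 5.05% higher and 0.770% lower on OPN. Without OPN replicate 2 or OPN replicate 3, limma called 1080 and 1023 rows instead of 1700.

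Atp1b1 was the beta chain that differed most between the coatings. Its signal was 786, 855 and 811 units on PT replicates 1, 2 and 4, and 490.2, 486 and 496 units on OPN replicates 2, 3 and 4. Every PT array stood above every OPN array, and the lowest PT array exceeded the highest OPN array by 290.1 units. The means were 817 ± 35.0 units on PT and 491 ± 5.20 on OPN (SD, n = 3), a 1.64-fold lower signal on OPN (log2 difference -0.72, SE 0.07). Of the 14506 genes, 5 had a lower difference than Atp1b1. The OPN arrays lay close together, with a coefficient of variation of 1.06% against 4.29% on PT.

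Atp1b2 was also lower on OPN, by less. Its signal was 673, 651 and 598 units on PT replicates 1, 2 and 4, and 488, 489 and 503 units on OPN replicates 2, 3 and 4. The coatings again did not overlap, though PT replicate 4 was nearest to the OPN arrays, 94.6 units above the highest of them. The means were 641 ± 38.7 units on PT and 493 ± 8.74 on OPN (SD, n = 3), a 1.29-fold lower signal (log2 difference -0.37, SE 0.07). Among all genes, 94 had a lower difference.

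Atp1b3 did not follow the other beta chains. Its signal was 1333, 1169.5 and 1372 units on PT replicates 1, 2 and 4, and 1319, 1430.2 and 1422 units on OPN replicates 2, 3 and 4. The ranges overlapped, with PT replicate 2 the lowest array and OPN replicate 2 below both remaining PT arrays. The means were 1291 ± 107 units on PT and 1390.2 ± 62.1 on OPN (SD, n = 3), a log2 difference of 0.11 (SE 0.08). Of all genes, 68.8% lay below this difference of 0.11. Without PT replicate 2 the difference was 0.04, as it was after the array medians were made equal. The RefSeq table also lists a pseudogene, Atp1b3-ps2, and whether the probes separate it from Atp1b3 was not tested.

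**Figure D1:**
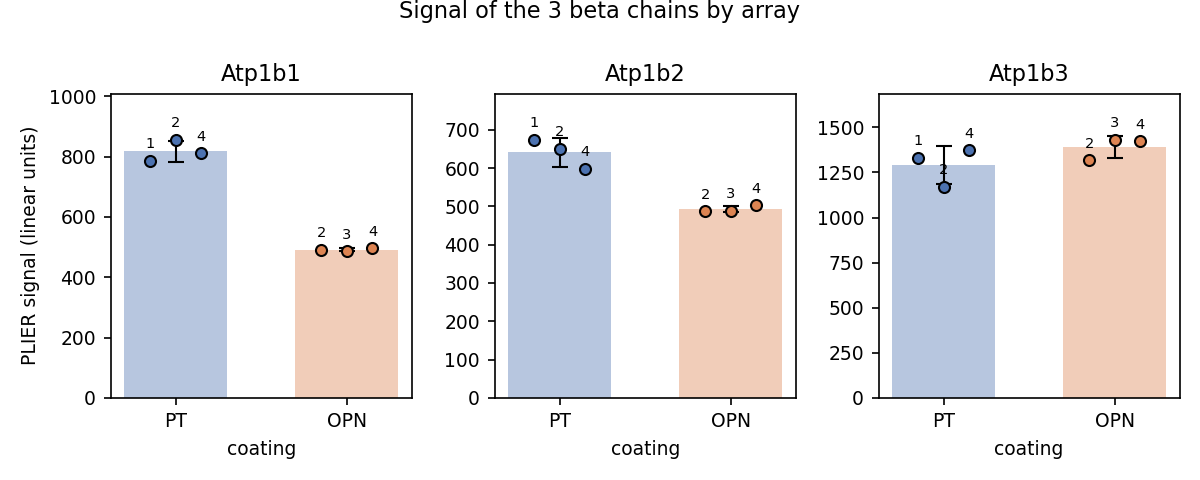
PLIER signal in linear units for Atp1b1, Atp1b2 and Atp1b3 on PT and OPN. Points are single arrays with their replicate number, bars the mean of 3 arrays and error bars the SD, and the PT and OPN points are apart for Atp1b1 and Atp1b2 but overlap for Atp1b3.

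Thus 2 of the 3 beta chains had OPN arrays wholly below the PT arrays, a pattern that 7.40% of all rows showed, while 23.7% of rows had no overlap in either direction. Because the contrast chose these genes, nothing is read from that count. On the same arrays, the median difference over all 14506 genes was 0.04. With the array medians made equal Atp1b1 stood at -0.79 and Atp1b2 at -0.43, so that both lay below 0 under every scaling run.

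**Figure D2:**
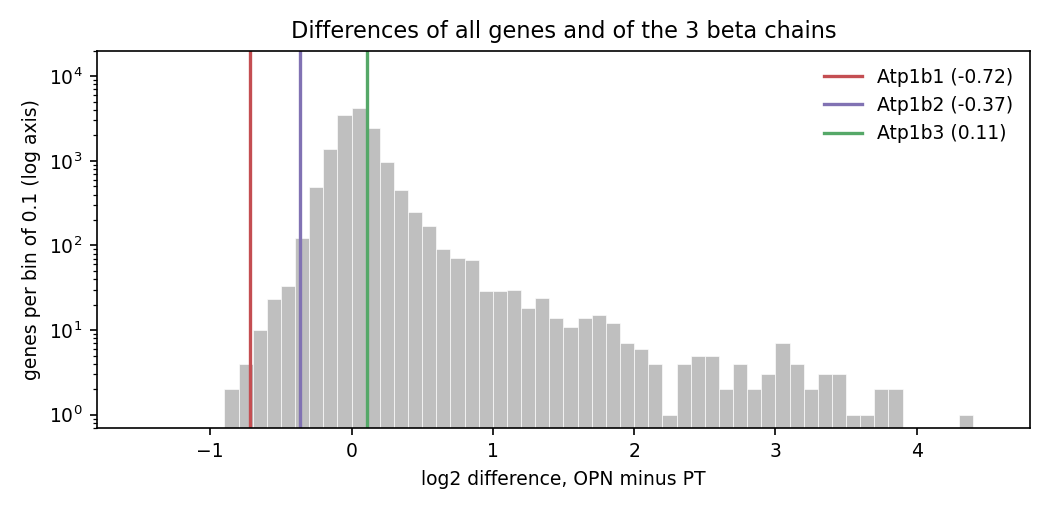
Number of genes (log axis) in each 0.1-wide bin of the log2 difference, OPN minus PT, for 14506 genes, with vertical lines at the beta chains. Atp1b1 (-0.72) lies in the thin lower end, Atp1b2 (-0.37) at the edge of the bulk and Atp1b3 (0.11) inside it.

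The beta chains were also set against each other within each array, where a scaling of the whole array almost cancels. Only the change of such a value between arrays is read, since levels of different probe sets are not comparable. The log2 value of Atp1b1 minus that of Atp1b3 was -0.75, -0.44 and -0.75 on PT replicates 1, 2 and 4, and -1.40, -1.53 and -1.49 on OPN replicates 2, 3 and 4. The mean shifted by -0.82 from PT to OPN, so Atp1b1 signal relative to Atp1b3 was 1.77-fold lower on OPN. Atp1b2 relative to Atp1b3 shifted by -0.47 and Atp1b1 relative to Atp1b2 by -0.35. For all 3 pairs the arrays of the coatings did not overlap. The contrast chose these genes and the pairs share them, so nothing is read from that count. The share of other gene pairs without overlap was not computed.

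The genes most like Atp1b1 in pattern encode receptors, lectins and a nuclease. Likeness was measured as the root mean square difference over the 6 arrays between log2 values centred on each gene's mean, and 23 genes lay within 0.1 of Atp1b1. The nearest was Axl (0.035), a receptor kinase that recognises dying cells, and it had 1463, 1607 and 1502 units on PT replicates 1, 2 and 4 against 919, 972 and 937 on OPN replicates 2, 3 and 4. Next came Fcna (0.046), which encodes a secreted lectin, the lectin receptor gene Clec4a1 (0.046), the nuclease gene Dnase1l3 (0.048) and the lectin receptor gene Clec4a3 (0.058). Like Atp1b1, all 5 had every OPN array below every PT array, and their log2 differences lay between -0.75 and -0.64. Sharing the difference between coatings brings such genes near each other, so this is a description of the 6 arrays.

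Around Atp1b2, 239 genes lay within 0.1. The nearest were Herc2 (0.029), which encodes a ubiquitin ligase, the amino acid carrier gene Slc7a8 (0.033), the endocytic adaptor gene Dab2 (0.038), the survival gene Bcl2a1 (0.042) and the nucleotide receptor gene P2ry13 (0.044), with log2 differences between -0.41 and -0.31. By the same limit 3621 genes lay near Atp1b3. The closest were Piwil2 (0.014), Sike1 (0.015), Trem1 (0.018), Cog1 (0.020) and Zfyve27 (0.021), which share its low value on PT replicate 2. Between members the distance was 0.188 for Atp1b1 and Atp1b2, 0.426 for Atp1b1 and Atp1b3 and 0.259 for Atp1b2 and Atp1b3.

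**Figure D3:**
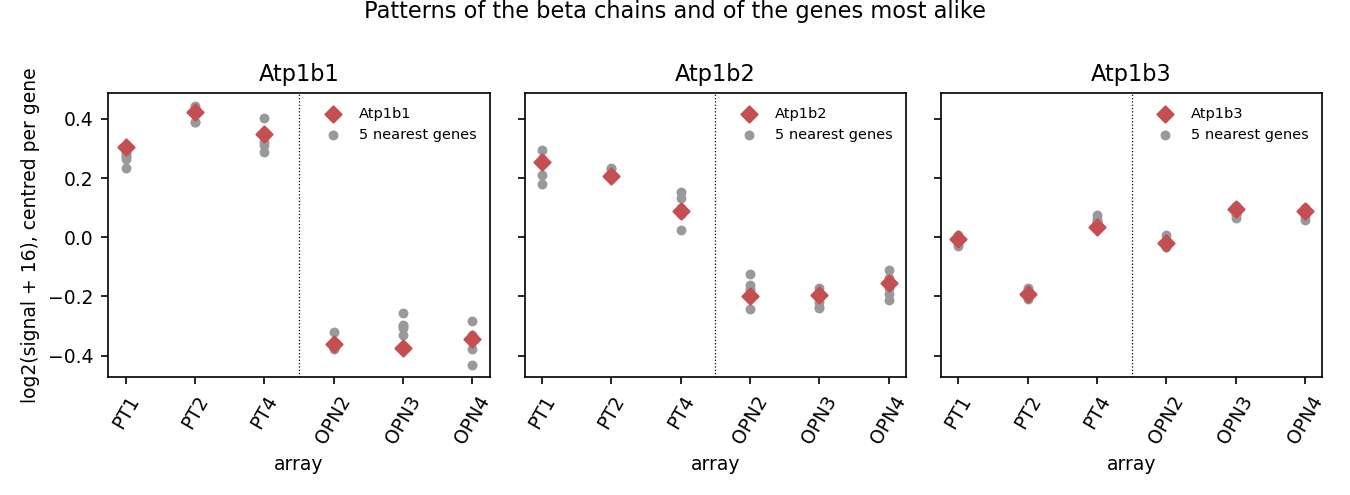
Centred log2(signal + 16) of each beta chain (red diamonds) and of its 5 nearest genes (grey points) on each of the 6 arrays. The values of Atp1b1 drop by 0.72 between coatings, those of Atp1b2 by 0.37, and Atp1b3 has its lowest value on PT replicate 2.

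Cell type markers moved between the same arrays. Macrophage markers fell in 11 of 16 measured cases (median -0.49, log2), and the list's summed signal was 16697 to 17565 units on PT and 11852 to 12669 on OPN. Cd163 (-0.87) and Mrc1 (-0.79), which encode scavenging receptors, and the complement gene C1qa (-0.75) had the smallest p of the list. On the other side of 0, and not called, stood 3 markers named after their values were seen: Cd68 (0.18, SE 0.09), a lysosomal glycoprotein gene whose OPN arrays all lay above its PT arrays, Csf1r (0.12, SE 0.09), which encodes the receptor of M-CSF, and Vsig4 (0.14, SE 0.13), a dim complement receptor gene that stood at -0.01 without PT replicate 2. None of the 16 was at 0, and the list holds Axl. The mean centred log2 value of these markers shifted by -0.42 from PT to OPN. Relative to that mean, Atp1b1 was 0.11, 0.19 and 0.15 on PT replicates 1, 2 and 4 and -0.15, -0.21 and -0.09 on OPN replicates 2, 3 and 4, a further shift of -0.30. Atp1b2 shifted by 0.05 relative to the same mean and Atp1b3 by 0.52. In bulk RNA, fewer cells of a type and less RNA per cell cannot be told apart, and the part of macrophages in the differences of Atp1b1 and Atp1b2 was not tested.

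Other marker lists bear on tissues in which the beta chains are well known. The 8 measured neuron and glia markers had a median difference of -0.01 with none called by limma and none at an unadjusted p below 0.05, and their sum was 1656 to 1720.4 units on PT and 1659 to 1665 on OPN. Of 8 epithelial markers 1 fell, Cdh1 (-0.54), the E-cadherin gene, and the list's sum was 2116 to 2335 units on PT and 1778 to 1941 on OPN. All 8 epithelial markers lay below 0 (median -0.12), and 1 was lower at an unadjusted p below 0.05 in limma. Of 8 erythroid markers 2 fell, Epb42 (-0.35) and Rhag (-0.30), with a median of -0.26 and sums of 36296 to 41487 units on PT and 32479 to 34778 on OPN. All 8 erythroid markers lay below 0, and 6 were lower at an unadjusted p below 0.05 in limma. Both erythroid calls were lost without PT replicate 2 or 4 or any 1 OPN replicate, with adjusted p between 0.0636 and 0.189.

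Markers of several other cells rose on OPN. This held for 7 of 8 osteoclast, 11 of 11 osteoblast, 10 of 10 stromal fibroblast, 9 of 11 endothelial, 7 of 7 megakaryocyte and platelet and 1 of 8 chondrocyte markers, with medians of 2.08, 2.46, 2.17, 0.61, 0.74 and 0.17. The chondrocyte call, Col2a1, had adjusted p between 0.0506 and 0.0726 when PT replicate 2 or 4 or OPN replicate 2 or 3 was left out. Limma called 0 genes of the granulocyte, mast and basophil, lymphocyte, skeletal muscle and adipocyte lists, where 4, 1, 0, 1 and 0 were higher and 0, 0, 1, 1 and 1 lower at an unadjusted p below 0.05. Without PT replicate 4, 5 granulocyte markers were called higher.

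Further genes of the pump family, Atp1a4, Atp1b4, Atp4b and Atp12a, were not called. Atp1a4 is the only alpha chain described here and does not stand for the pump's alpha chains as a whole. Atp1a4, the alpha chain of sperm, had 133 ± 4.53 units on PT and 129 ± 11.8 on OPN (SD, n = 3), and its arrays overlapped. Atp1b4, whose protein in placental mammals is a muscle nuclear membrane protein and not a pump subunit, had 85.3 ± 6.28 units on PT and 85.2 ± 6.91 on OPN (SD, n = 3). Atp4b and Atp12a, the beta and alpha chains of proton-potassium pumps, had log2 differences of -0.17 (SE 0.08) and -0.10 (SE 0.10), with adjusted p of 0.346 and 0.718 in limma. These proton-potassium pump genes are named although no gene of their list was called, an exception to the naming rule given below.

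Of the 7 FXYD regulators, all measured, 2 rose on OPN, Fxyd1 and Fxyd5, and 0 fell, also at an unadjusted p below 0.05. Fxyd1 encodes phospholemman, which restrains the pump in heart and muscle until it is phosphorylated. Its signal was 246, 132 and 179 units on PT replicates 1, 2 and 4 and 508, 523 and 518 units on OPN replicates 2, 3 and 4. The groups were far apart, and the PT arrays were the more scattered. The difference was 2.71-fold (log2 1.44, SE 0.17, adjusted p = 0.00148 in limma) and ranged from 1.24 to 1.65 over 13 alternative settings, with the call kept in each.

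Fxyd5 encodes dysadherin, which raises pump activity and weakens adhesion between cells. It had 207, 207 and 233 units on PT replicates 1, 2 and 4 and 324, 329 and 308 units on OPN replicates 2, 3 and 4. No OPN array came near the PT range, and the difference was 1.45-fold (log2 0.54, SE 0.07, adjusted p = 0.00292 in limma). The call held without any 1 array and was lost with the replicate number as a block (adjusted p = 0.107 in limma). On the same arrays the skeletal muscle markers had a median difference of -0.02 and a sum of 2358 to 2607 units on PT and 2247 to 2459 on OPN, and the stromal fibroblast markers had a sum of 1717 to 1772 units on PT and 8780 to 9563 on OPN. Markers of other cells rose as well, among them 11 of 11 osteoblast, 7 of 8 osteoclast, 9 of 11 endothelial and 7 of 7 megakaryocyte and platelet markers. Which cells carried Fxyd1 or Fxyd5 RNA was not tested.

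The other FXYD genes did not pass. Fxyd2, the gamma chain of kidney pumps, had a log2 difference of -0.17 (SE 0.09) and Fxyd4, a regulator of the kidney collecting duct, -0.15 (SE 0.09), with adjusted p of 0.382 and 0.447. Fxyd6 stood at 0.19 (SE 0.10, adjusted p = 0.391), and Fxyd3 (0.04, SE 0.09) and the brain gene Fxyd7 (0.05, SE 0.11) were near 0. Fxyd3 and Fxyd7 turned below 0 with the array medians made equal and with quantile normalisation, and also without PT replicate 2 (Fxyd3, -0.03) or PT replicate 4 (Fxyd7, -0.01).

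**Figure D4:**
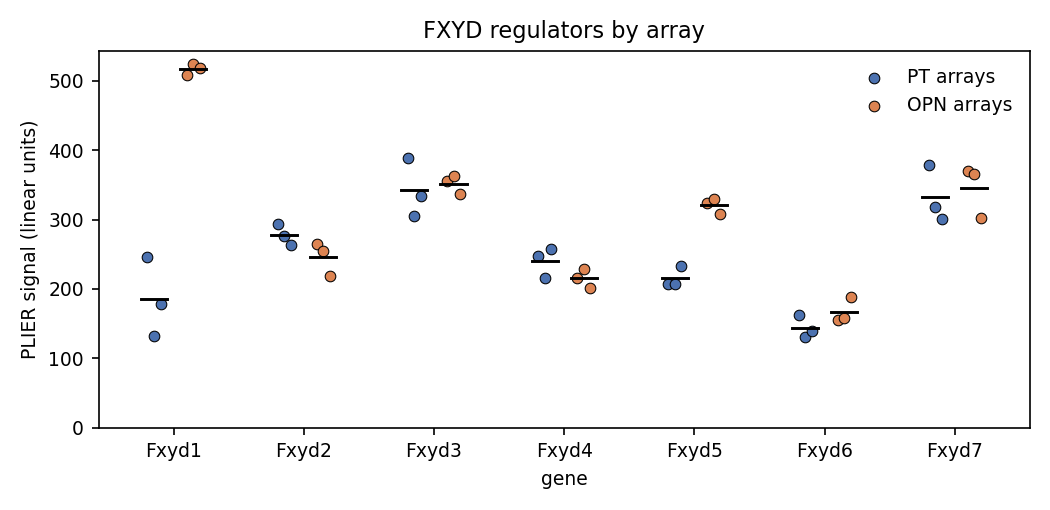
PLIER signal in linear units of the 7 FXYD genes, with a point per array and a line at the mean of the 3 arrays of a coating. The OPN points of Fxyd1 and Fxyd5 lie above all their PT points, and those of the other FXYD genes overlap.

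The pump's wider setting was described with 11 lists of ion transport genes, which hold 153 measured genes besides the 3 beta chains, of 170 listed. Of the 153, 16 rose (10.5%) and 6 fell (3.92%), where 5.05% of all rows rose and 0.770% fell, and 7.62% and 1.12% of the 14506 genes did. The median difference was 0.02, against 0.04 over all genes. Among the 153, 0 had a lower difference than Atp1b1 and 2 a lower one than Atp1b2. The 22 calls became 14 without PT replicate 2, 13 without OPN replicate 2, 11 without OPN replicate 3 and 14 without OPN replicate 4, and only 1 gene was called lower when either array numbered 2 or either numbered 4 was left out, and 0 without OPN replicate 3. With the array medians made equal 14 rose and 9 fell.

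Carriers that use the sodium gradient held the widest differences. Of 34 measured sodium-coupled solute carriers 2 rose and 3 fell. Slc13a5, the sodium-citrate cotransporter gene, had 119, 117 and 163 units on PT replicates 1, 2 and 4 and 907, 1030.5 and 995.5 on OPN replicates 2, 3 and 4, a 6.72-fold difference (log2 2.75, SE 0.12, adjusted p = 3.41e-06 in limma). All OPN arrays were far above the PT arrays, as they were for Slc6a8, the creatine transporter gene, which was 2.14-fold higher (1.10, SE 0.07, adjusted p = 3.45e-05). The genes that fell were Slc1a3 (-0.42, SE 0.07), a glutamate transporter, Slc6a9 (-0.32, SE 0.06), a glycine transporter, and Slc20a1 (-0.31, SE 0.06), a phosphate transporter. Slc20a1 was named after its values were seen, as were Ank1 and Agrn below. The call of Slc1a3 was lost without OPN replicate 3 (adjusted p = 0.0526), that of Slc6a9 without each array except PT replicate 1 (adjusted p 0.0545 to 0.0914) and that of Slc20a1 without each of the 6 arrays (adjusted p 0.0602 to 0.115).

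Exchangers and chloride cotransporters gave 3 genes that rose. Of 16 measured sodium exchangers 1 rose, Slc8a3, a sodium-calcium exchanger gene, with 109, 68.1 and 87.1 units on PT replicates 1, 2 and 4 and 326, 339 and 315 on OPN replicates 2, 3 and 4. Its difference was 3.33-fold (log2 1.74, SE 0.13, adjusted p = 9.18e-05 in limma). In that list 0 fell, 3 were lower at an unadjusted p below 0.05, and 3 were called lower with the array medians made equal or with quantile normalisation. Among 8 chloride cotransporter genes, Slc12a4 (0.42, SE 0.07), a potassium-chloride cotransporter, and Slc12a2 (0.61, SE 0.13), a sodium-potassium-chloride cotransporter driven by the sodium gradient, rose. The Slc12a2 call was lost without PT replicate 1 or any 1 OPN replicate (adjusted p 0.0718 to 0.122).

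Channels and calcium pumps mostly did not pass. Of 35 potassium channel genes 2 rose, the large-conductance calcium-activated channel gene Kcnma1 (0.47, SE 0.07) and the inward rectifier gene Kcnj8 (0.35, SE 0.08), and 1 fell, Kcnn4 (-0.33, SE 0.07), the calcium-activated channel of red cells and leukocytes. Of 18 sodium channel genes 1 rose, Scn7a (0.76, SE 0.09), and of 9 calcium pumps Atp2a3 (0.39, SE 0.08) rose and Atp2b4 (-0.29, SE 0.07), a pump of the plasma membrane, fell. Kcnma1 and Scn7a kept their calls without any 1 array, and Kcnma1 lost its call with the replicate number as a block (adjusted p = 0.0743 in limma). The calls of Kcnj8 and Atp2b4, at adjusted p of 0.0498 and 0.0499 in limma, were lost without each of the 6 arrays (0.0509 to 0.181). That of Kcnn4 was lost without each except PT replicate 1 (0.0734 to 0.130) and that of Atp2a3 without each except PT replicate 4 (0.0639 to 0.119). Kcnj8, Atp2b4, Kcnn4 and Atp2a3 also lost their calls with the replicate number as a block. Equal array medians ended those of Kcnj8 and Atp2a3, quantile normalisation that of Kcnj8, and an offset of 1 those of Kcnj8 and Atp2b4.

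Of 22 partners and kinases of the pump, 5 rose and 1 fell. The spectrin genes Sptan1 (0.52, SE 0.08) and Sptbn1 (0.52, SE 0.10), whose proteins tether membrane pumps to the cytoskeleton, rose with the caveolin gene Cav1 (0.70, SE 0.10) and the kinase gene Src (0.47, SE 0.08), both linked to signalling by the pump, and with Agrn (0.40, SE 0.08), the agrin gene. Ank1 (-0.38, SE 0.07), the ankyrin of red cells, fell. The kinase gene Sgk1, which raises pump number at the membrane, had 1628 units on PT and 1566 on OPN (log2 -0.05, SE 0.07, adjusted p = 0.770). The calls of Sptan1, Cav1 and Src held without any 1 array, while Ank1 lost its call without each except PT replicate 1 (adjusted p 0.0599 to 0.0813), Agrn without PT replicate 2 or OPN replicate 2 or 3 (0.0657 to 0.0920) and Sptbn1 without OPN replicate 3 or 4 (0.0530 to 0.0700). With the replicate number as a block, Sptan1 and Src lost their calls (adjusted p of 0.118 and 0.129 in limma). Sgk1 was named after its values were seen.

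**Figure D5:**
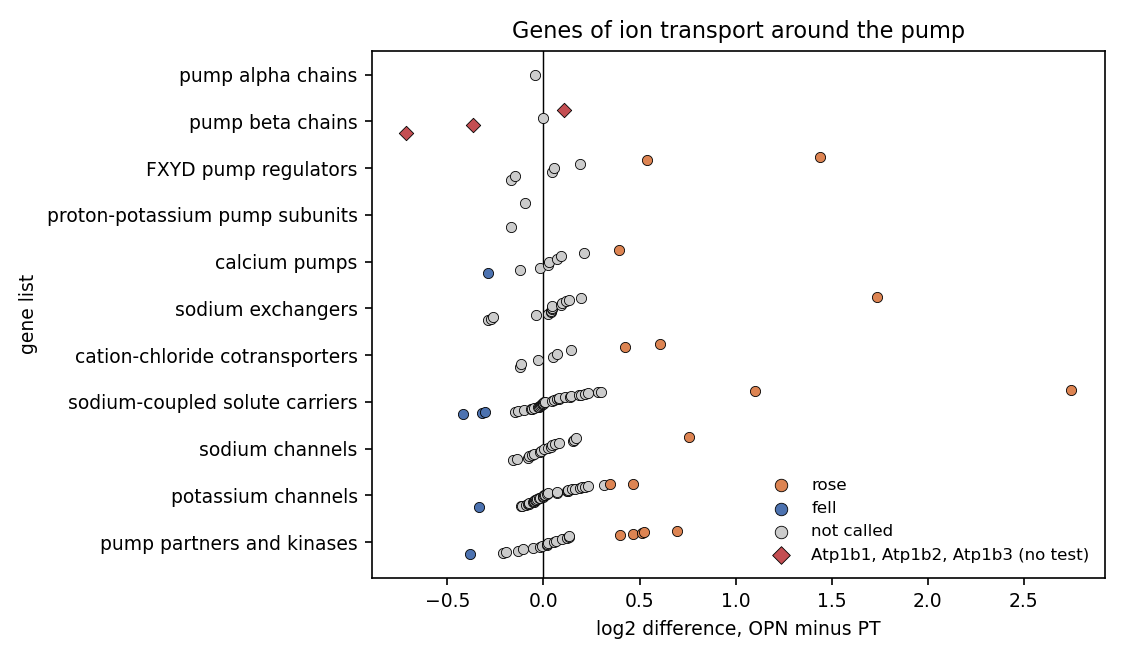
Log2 difference, OPN minus PT, of every measured gene of the 11 ion transport lists, with a point per gene coloured by limma's call and diamonds for the beta chains, which were not tested. Atp1b1 is the lowest point of all lists, and the widest differences above 0 belong to Slc13a5 (2.75), Slc8a3 (1.74) and Fxyd1 (1.44).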

How the data were processed

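RNA of 3 PT and 3 OPN samples was read on 6 arrays from 300 ng RNA each, per the labels' protocols. The authors deposited 1 linear intensity per probe set and array, made with Affymetrix Expression Console and PLIER per the submitters' processing notes. The build, versions, background step and scaling are likewise not given in the sources. All 6 columns were assigned by sample accession. The platform annotation gave 1 symbol to 15310 of 29215 rows, several to 323 and none to 13582. Of these, 15279 were found by Entrez identifier among the GRCr8 genes, and 0 symbols differed. For a gene with several rows the row with the highest mean was used.

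Values were transformed as log2(intensity + 16), which understates changes of dim rows, and fitted by coating with limma 3.58.1 (lmFit, eBayes) in R 4.3.3 over all rows, with Benjamini-Hochberg adjustment over all rows and no filter. The fit was tested on simulated data. Precision is limited by the number of arrays. The members and gene lists were chosen with earlier results of these data known. Named genes were the members, the alpha, beta and FXYD genes, up to 4 called genes of each other transport list by p, up to 3 per marker list, and the 5 nearest genes per member. Exceptions are stated where they occur. Alternatives were offsets of 1 and 64, equal array medians, quantile normalisation, leaving out rows below the 25th percentile of mean signal, an intensity trend in eBayes, the replicate number as a block, and leaving out each array.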

Additional observations from a re-analysis of the deposited data

How the results depend on the processing

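All 13 alternatives kept the sign of the 3 members' differences. The log2 difference of Atp1b1 was -0.67 with an offset of 64 and -0.79 with equal array medians or quantile normalisation, and that of Atp1b2 was -0.43 with either scaling. Leaving out single arrays gave -0.74 to -0.68 for Atp1b1, -0.41 to -0.33 for Atp1b2 and 0.04 to 0.15 for Atp1b3. Rows called numbered 1023 to 1486 and the transport genes called 11 to 17 with 1 array left out. The share of called rows that were higher on OPN was 86.8%, 68.4% with equal array medians and 64.6% with quantile normalisation. Fxyd3 turned to -0.02 with equal medians and -0.04 with quantile normalisation, and lay between -0.03 and 0.13 with 1 array left out. Fxyd7 turned to -0.01 and -0.03 with these scalings, and lay between -0.01 and 0.14 with 1 array left out. Vsig4 lay between -0.01 and 0.23 with 1 array left out. The cause was not tested.

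Replicate numbers 2 and 4 occur on both coatings, with no label that ties them to a common preparation. Deviations from the coating means correlated at -0.08 for the arrays numbered 2 and 0.07 for those numbered 4. With the replicate number as a block, 666 rows and 6 transport genes were called. This fit leaves 1 residual degree of freedom. PT replicate 1 and OPN replicate 3 share their number with no other array, so the differences of this fit rest on the arrays numbered 2 and 4. The block alone ended the calls of Fxyd5, Slc12a4, Kcnma1, Sptan1 and Src, with adjusted p of 0.107, 0.198, 0.0743, 0.118 and 0.129 in limma. Fewer arrays and a shared preparation cannot be told apart in these losses. Of the 45 named genes of the transport and marker lists that were called, 26 kept their call under every alternative that could be fitted. Nearest genes of the members that are in no list were not counted there. Signal over background was not available for dim rows, which limits what their differences show.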
